A study of Macaca mulatta with 13 samples.

Results

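The miR-99/100 and miR-125 microRNA families were measured by small RNA sequencing in vastus lateralis (thigh muscle) biopsies from rhesus monkeys (Macaca mulatta). The CR group held 8 samples from animals fed a calorie-restricted diet and the Control group 5 samples from animals fed the control diet. No allele or drug is named for either group, and the labels give neither age nor sex. By its title the series concerns caloric restriction and sarcopenia, an age-related muscle loss, and the question asked here is how these families stood in the muscle of CR and Control animals and whether the members of 1 genomic cluster varied together. Members were the listed names of miR-99a, miR-99b, miR-100, miR-125a and miR-125b, with any arm (5p or 3p, the 2 strands of the hairpin) or copy number. This gave 11 names of 909: the 5p arm of each of the 5 miRNAs, the 3p arms of miR-99a, miR-99b, miR-100 and miR-125a, and the separate 3p arms miR-125b-1-3p and miR-125b-2-3p.

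MicroRNAs are short RNAs that guide Argonaute proteins to messenger RNAs with sites matching the seed, a few bases near their 5′ end, and lower the output of those messengers. The miR-99/100 family is known in mammalian cells for repressing the growth kinase mTOR and the IGF1 receptor, both parts of nutrient signalling. The miR-125 family is the vertebrate counterpart of lin-4, the developmental timing miRNA of the worm Caenorhabditis elegans, and represses LIN28, a protein that blocks the maturation of let-7; in mouse myoblasts miR-125b represses IGF2 and slows differentiation. The let-7 family represses growth genes as well, and in Drosophila miR-100, let-7 and miR-125 are made from 1 transcript.

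The genes of these families lie beside let-7 genes. In the T2T-MMU8v2.0 annotation, which is another build than the one behind the counts and was used for names and neighbours only, MIR125B-2, MIRLET7C and MIR99A followed each other with no other annotated miRNA gene between them, and so did MIR99B, MIRLET7E and MIR125A, and MIR125B-1, MIRLET7A-2 and MIR100. These 3 sets, called the miR-99a, miR-99b and miR-100 loci here, lie on 3 different chromosomes. The miR-99a locus lies within the span of LOC114676844, annotated as protein-coding, and the miR-99b locus within that of the protein-coding gene SPACA6. MIR100, MIRLET7A-2 and MIR125B-1 lie within the span of the long non-coding RNA gene LOC106993508. MIR100 and MIRLET7A-2 also lie within that of the protein-coding gene BLID. Mature miR-125b-5p is made by hairpins of both the miR-99a and the miR-100 locus, and its counts cannot be divided between them; the 2 copies were listed with nearly equal counts (at most 0.248% apart in a library) and counted once. The let-7a-5p row likewise stood for 3 gene copies, of which only 1 lies beside MIR100. The 3p arms of miR-125b are the exception, since their names give the copy: miR-125b-1-3p belongs to the miR-100 locus and miR-125b-2-3p to the miR-99a locus. Family members differ by few bases, so the values of miR-99a against miR-100, of miR-125a against miR-125b and of single let-7 members are uncertain where the counting could split reads between them.

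Named miRNAs had 1154326 to 5392612 counts per library. Levels are given as CPM, a count relative to the library's TMM-scaled total, which corrects for a few very abundant miRNAs; miR-486 alone took 42.4 to 70.8% of the counts of a library. Mature miRNAs are of nearly equal length, so levels of different miRNAs were compared without a length term, although ligation can favour some over others. The muscle fibre markers checked (11 names, 10 with counts, miR-208b-5p at 0 throughout) summed to 39221 to 80931 CPM in CR and to 13529 to 58707 CPM in Control. The lowest sum was that of Control replicate 4, against 52313 to 58707 CPM in the other Control samples. The same library had the highest sum of the 4 fibroblast markers (2048 CPM, against 487 to 1636 in CR and 718 to 1421 in the other Control samples), with all 4 above 0 in every library. The sum of the 6 leukocyte names, all with counts, ran from 253 to 721 CPM in CR and from 330 to 641 CPM in Control. It was highest in CR replicate 2 (721 CPM) and next in Control replicate 4 (641 CPM), where miR-150-5p alone gave 677 and 575 CPM. Of the other leukocyte names, miR-142-5p, miR-142-3p and miR-150-3p were highest in CR replicate 3, miR-155 in CR replicate 1 and miR-223 in Control replicate 4. Smooth muscle names summed to 13393 to 45620 CPM in CR and 10985 to 42294 CPM in Control, the endothelial name to 66.4 to 145 CPM in CR and 76.8 to 219 CPM in Control, and red blood cell names to 135 to 1510 CPM in CR and 138 to 1386 CPM in Control. Liver names (1 of 2 at 0 throughout) reached 8.32 CPM in CR and 24.2 CPM in Control, epithelial names (5 of 8 at 0 throughout) 9.42 CPM in CR and 2.24 CPM in Control, and neuronal names (3 of 5 at 0 throughout) 13.7 CPM in CR and 5.41 CPM in Control.

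The 5p arms were the main products of these hairpins and stood in a steady order. Averaged over the 13 libraries, miR-125a-5p ranked at place 18 of the 909 named miRNAs with 3436 CPM, miR-125b-5p at place 23 with 2404 CPM, miR-99b-5p at place 30 with 1391 CPM, miR-100-5p at place 44 with 637 CPM and miR-99a-5p at place 57 with 454 CPM. The level of miR-125a-5p was above that of miR-125b-5p in 13 of 13 libraries, miR-125b-5p was above miR-99b-5p in 12 of 13 (not in CR replicate 3), and miR-99b-5p was above miR-100-5p in 13 of 13. The last neighbours changed places in CR replicate 8 and Control replicate 1, with miR-100-5p above miR-99a-5p in the other 11.

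Within the miR-99/100 family, miR-99b-5p had the lowest, median and highest levels of 1061, 1338 and 1810 CPM in CR, against 1573, 1216, 1363, 2197 and 768 CPM in Control replicates 1 to 5. Control replicates 4 and 5 held the highest and the lowest value of all 13 libraries, and the CR values lay between them. For miR-100-5p the CR values were 409 (lowest), 583 (median) and 997 CPM (highest), against 444, 639, 539, 1142 and 562 CPM in Control replicates 1 to 5. Control replicate 4 was again the highest, CR replicate 2 came next, and the groups overlapped. For miR-99a-5p the CR values were 267 (lowest), 469 (median) and 605 CPM (highest), against 475, 355, 377, 706 and 423 CPM in Control. The CR range enclosed 4 of the 5 Control values, with Control replicate 4 above it. Of the family's 5p counts, miR-99b-5p gave 56.3% ± 4.65 in CR and 55.2% ± 7.32 in Control (SD, 8 and 5 samples), miR-100-5p gave 25.3% ± 5.58 in CR and 26.1% ± 5.53 in Control, and miR-99a-5p gave 18.4% ± 3.91 in CR and 18.7% ± 3.27 in Control.

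Within the miR-125 family, miR-125a-5p had values of 2135 (lowest), 3070 (median) and 5659 CPM (highest) in CR, against 4040, 3322, 2674, 6310 and 1743 CPM in Control replicates 1 to 5. The highest CR value was that of CR replicate 2, and Control replicates 4 and 5 lay above and below the whole CR range. The values of miR-125b-5p were 1394, 2305 and 3808 CPM in CR (lowest, median and highest), against 2756, 2572, 1797, 3858 and 1380 CPM in Control. The same libraries stood at both ends: Control replicate 4 and CR replicate 2 were highest and Control replicate 5 lowest. The share of miR-125a-5p in the family's 5p counts varied little and was 58.4% ± 1.68 in the 8 CR samples and 58.7% ± 2.59 in the 5 Control samples (SD).

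**Figure D1:**
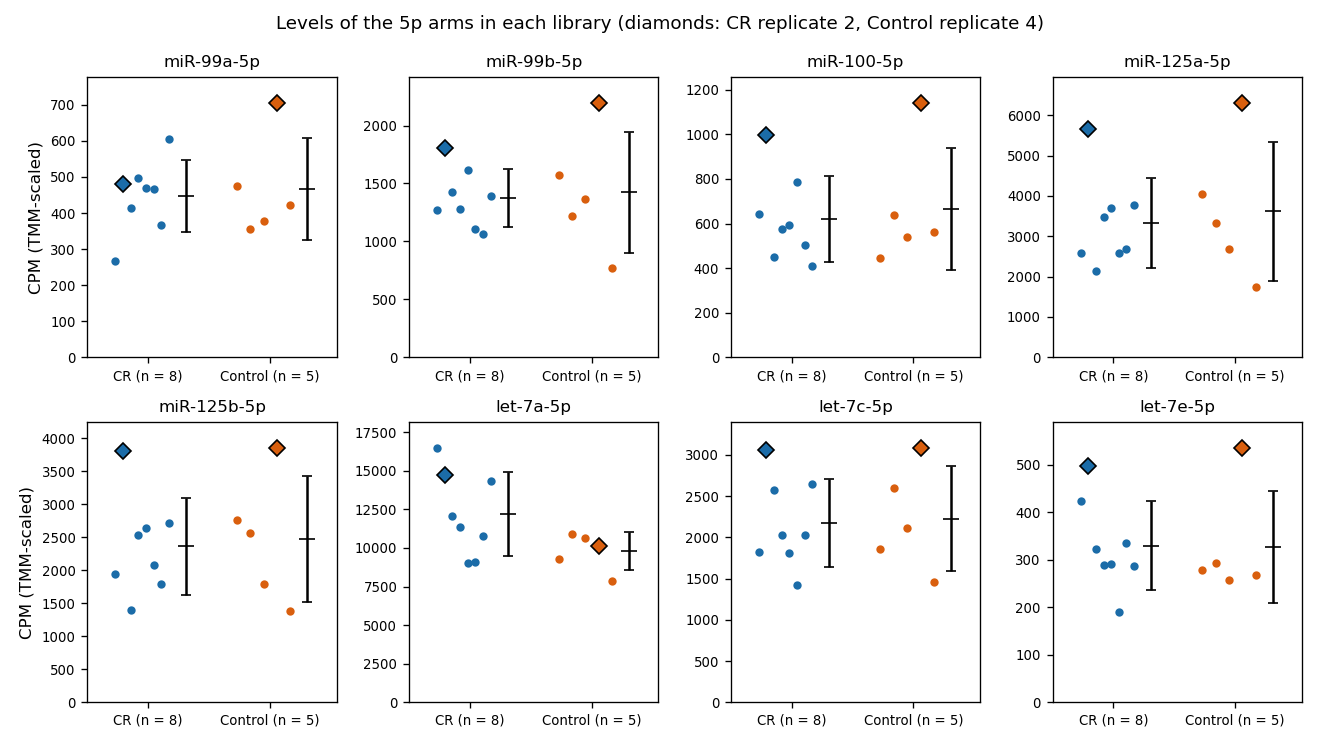
TMM-scaled level in CPM of the 5p arms of the 5 miRNAs and of their let-7 cluster partners, 1 point per library, with CR (blue) left of Control (orange); bars give the mean ± SD and diamonds mark CR replicate 2 and Control replicate 4. Control replicate 4 is the highest library for all 5 member 5p arms, from 706 CPM for miR-99a-5p to 6310 CPM for miR-125a-5p, and the groups overlap in every panel.

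CR and Control muscle did not differ past the threshold for any member tested. The 5p arms had log2 fold changes, CR over Control, of -0.0672 ± 0.23 (SE) for miR-99a-5p, -0.0543 ± 0.23 for miR-99b-5p, -0.10 ± 0.26 for miR-100-5p, -0.12 ± 0.29 for miR-125a-5p and -0.0664 ± 0.26 for miR-125b-5p. Of 10 members tested by edgeR's quasi-likelihood test, 0 passed a Benjamini-Hochberg adjusted p of 0.05 (adjusted over all 263 tested miRNAs, lowest 0.985), where 0% of all tested miRNAs passed. At an unadjusted p under 0.05 the counts were 0 of 10 members and 7 of 263 miRNAs (2.66%), and DESeq2 and limma-voom called 0 members as well. The 95% interval of the fold change lay within a 2-fold change in either direction for 9 of 10 members, against 58.6% of all tested miRNAs. These shares were not matched for level, so they do not show that the members were steadier than miRNAs of similar abundance. For miR-125a-5p, the widest of the 5p arms, the interval ran from -0.72 to 0.48. The exception was miR-99a-3p, whose interval ran from -1.18 to 0.17.

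The direction of the 5p estimates changed with single libraries and with a covariate. Over all 13 libraries the fitted level was lower in CR for 9 of 10 members (all tested miRNAs, 48.3%), with a median log2 fold change of -0.0763 against 0.0103 over all tested. Without Control replicate 4 the values were 0.13 for miR-99a-5p, 0.16 for miR-99b-5p, 0.18 for miR-100-5p, 0.17 for miR-125a-5p and 0.15 for miR-125b-5p, 6 of 9 tested members had a higher level in CR, and the median was 0.13 against 0.0604 over all tested. For miR-125b-5p the log2 fold change was also above 0, at 0.0125, without CR replicate 3. With the sample number as covariate and all 13 libraries, the fitted level was higher in CR for 6 of 10 members, with 0.17 for miR-99b-5p, 0.0742 for miR-125a-5p and 0.11 for miR-125b-5p. Without Control replicate 5 the members' median was -0.23 with 10 of 10 lower in CR, and without CR replicate 2 it was -0.24 with 9 of 9 lower. Scaling to library totals alone moved the median of all tested miRNAs to -0.26 and that of the members to -0.45, with 10 of 10 lower in CR.

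**Figure D2:**
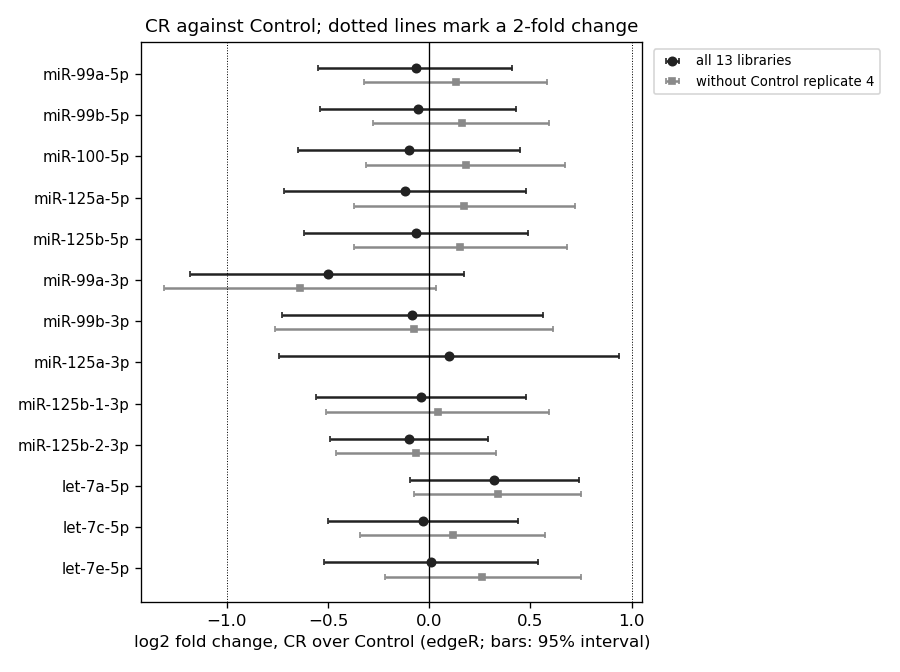
Log2 fold change, CR over Control, from edgeR for the 10 tested members and 3 let-7 partners, with 95% intervals, over all 13 libraries (black circles) and without Control replicate 4 (grey squares; miR-125a-3p was then below the filter on low counts). The 5 member 5p arms lie between -0.12 and -0.0543 with all libraries and between 0.13 and 0.18 without that library, and all of these intervals include 0.

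Control replicate 4 stood higher for the 5p than for the 3p arms. It held the highest level of the 13 libraries for 5 of the 10 tested members, which were the 5 5p arms (19.8% of all tested miRNAs were highest there), at 1.59 to 2.1 times the median of the other 12 libraries. For the tested 3p arms the same ratio was 0.827 for miR-99a-3p, 0.987 for miR-99b-3p, 1.22 for miR-125a-3p, 1.26 for miR-125b-1-3p and 1.2 for miR-125b-2-3p, and this library was second highest for both miR-125b 3p arms. Next to it stood CR replicate 2, second highest for miR-99b-5p, miR-100-5p, miR-125a-5p and miR-125b-5p. In Control replicate 4 the fibroblast sum was the highest and the muscle fibre sum the lowest of the 13, and CR replicate 2 had the second highest fibroblast sum (1636 CPM); the part of these in the levels was not tested. In bulk tissue, fewer cells of a type and less RNA per cell cannot be told apart.

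As a share of named miRNA counts the miR-99/100 family took 0.237% ± 0.0839 in CR (SD of 8 samples; 0.152 to 0.375%) and 0.326% ± 0.224 in Control (SD of 5; 0.166 to 0.716%). The miR-125 family took 0.584% ± 0.266 in CR (0.306 to 1.13%) and 0.826% ± 0.611 in Control (0.327 to 1.87%). Both Control maxima were those of Control replicate 4 (95% exact binomial intervals 0.708 to 0.723% and 1.86 to 1.88%, which cover counting error only, as PCR can copy 1 molecule into several reads). Without this library the Control means were 0.229% and 0.566%. Its share of miR-486, 42.4%, was the lowest of the 13. Out of the counts without miR-486 the families took 0.577% ± 0.119 and 1.42% ± 0.49 in CR, against 0.68% ± 0.335 and 1.72% ± 0.948 in Control.

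The 3p arms were rare except for that of the second miR-125b copy. Over all libraries miR-100-3p had 11 counts and was at 0 in 8 of 13; a 0 is compatible with up to 3 counts, which is 0.556 to 2.6 unscaled CPM. It was the 1 member that did not pass the filter on low counts. The level of miR-125a-3p was 1.49 to 4.86 CPM in CR and 1.67 to 3.76 CPM in Control, and that of miR-99b-3p was 4.92 to 13.7 CPM in CR and 8.33 to 12.3 CPM in Control. The values of miR-99a-3p were 8.17 (lowest), 10.6 (median) and 18.7 CPM (highest) in CR, against 18.8, 13.9, 10.6, 10.2 and 30 CPM in Control, and the Control mean of 16.7 CPM was above 7 of the 8 CR values. Its log2 fold change was -0.50 ± 0.32 (SE; edgeR adjusted p 0.985). Without Control replicate 5, its highest library, it was -0.25, and over all single libraries left out it ran from -0.68 to that value. The other 3p arms had log2 fold changes of -0.0854 ± 0.31 for miR-99b-3p, 0.10 ± 0.40 for miR-125a-3p, -0.0383 ± 0.25 for miR-125b-1-3p and -0.10 ± 0.18 for miR-125b-2-3p.

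The arms of miR-125b that name their gene copy differed in level. The miR-99a locus arm, miR-125b-2-3p, stood at 340 ± 58.3 CPM in CR (SD, n = 8) and 364 ± 31.4 CPM in Control (n = 5), and the miR-100 locus arm, miR-125b-1-3p, at 29.2 ± 7.4 CPM in CR and 29.9 ± 5.11 CPM in Control. Their count ratio was 8.89 to 17.3 in CR and 9.75 to 16.4 in Control. The 5p arms of the neighbouring hairpins stood in the other order, with means over the 13 libraries of 454 CPM for miR-99a-5p and 637 CPM for miR-100-5p. The output of each locus was not measured, and levels of 3p arms alone do not give it. Across the 13 libraries miR-125b-2-3p had a coefficient of variation of 14.2%, place 4 from the lowest of 263 tested miRNAs (median 39.3%), against 33% for miR-125b-5p.

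Of all counts from a hairpin, the 3p arm averaged, for miR-99a, 2.59% ± 0.688 in the 8 CR samples (SD) and 3.67% ± 1.91 in the 5 Control samples, and 0.703% ± 0.249 in CR and 0.769% ± 0.227 in Control for miR-99b. For miR-125a it was 0.0835% ± 0.0365 in CR and 0.0814% ± 0.0347 in Control, and for miR-125b, with both 3p arms summed, 14% ± 2.49 in CR and 15% ± 5.08 in Control. Control replicates 4 and 5 stood at opposite ends. In Control replicate 4 the share was the lowest of the 13 libraries for miR-99a (1.42%, 95% exact binomial interval 1.13 to 1.76%), miR-125a (0.0388%, 0.0237 to 0.0599%) and miR-125b (10.2%, 9.84 to 10.5%). In Control replicate 5 it was the highest for miR-99a (6.62%, 5.21 to 8.26%), miR-99b (1.07%, 0.657 to 1.65%) and miR-125b (22.9%, 21.6 to 24.2%).

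**Figure D3:**
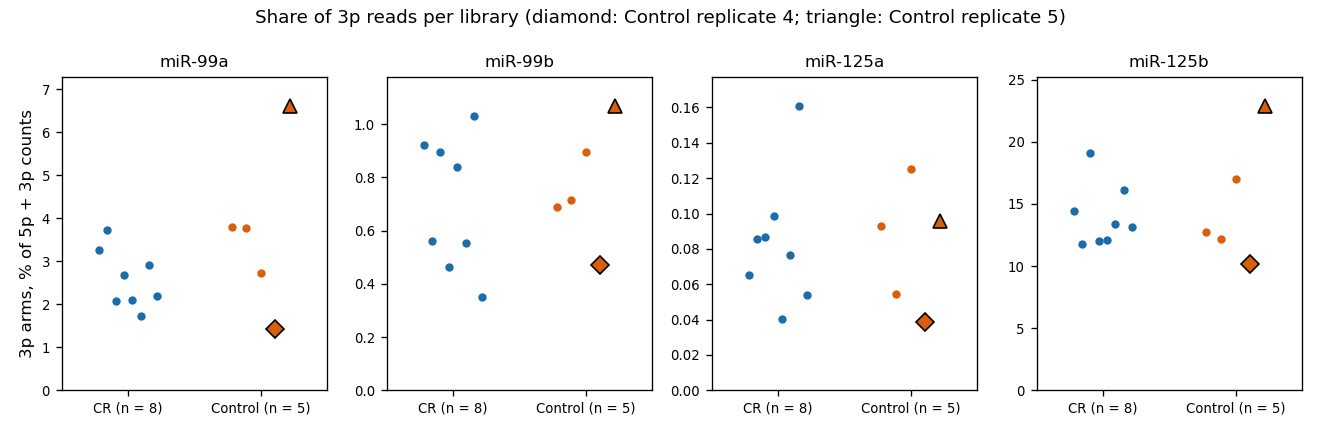
Share of 3p counts in all counts of a hairpin, in percent, for miR-99a, miR-99b, miR-125a and miR-125b (both 3p arms summed), 1 point per library, with CR (blue) left of Control (orange); the diamond is Control replicate 4 and the triangle Control replicate 5. These 2 libraries span 1.42 to 6.62% for miR-99a and 10.2 to 22.9% for miR-125b, beyond all 8 CR samples on both sides.

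The let-7 partners were compared in the same way. The level of let-7a-5p was 12227 ± 2725 CPM in CR (SD, n = 8) and 9779 ± 1226 CPM in Control (n = 5), that of let-7c-5p 2175 ± 539 CPM in CR and 2223 ± 637 CPM in Control, and that of let-7e-5p 330 ± 93.6 CPM in CR and 327 ± 118 CPM in Control. Their log2 fold changes were 0.32 ± 0.20 (SE), -0.0319 ± 0.23 and 0.011 ± 0.25, and without Control replicate 4 they were 0.34, 0.12 and 0.26. For let-7a-5p the value was 0.19 without CR replicate 1, its highest library, 0.21 without CR replicate 2, 0.20 without Control replicate 5, 0.043 with library totals alone and 0.50 with the sample number as covariate. Of the 7 arms of these partners 5 were tested and 0 passed in edgeR (0 at an unadjusted p under 0.05), with 3 higher and 2 lower in CR and a median of 0.011. The other let-7 and miR-98 names, 9 of 10 tested, gave a median of 0.26 with 7 higher in CR and 0 past the threshold, beside 0.0103 over all tested miRNAs; miR-10a-5p and miR-10b-5p, abundant relatives of the miR-99/100 family, had 0.036 and 0.16.

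Co-variation of cluster partners was read from the correlation of log2 CPM across the 13 libraries, over 13 pairs of 5p arms: 9 within a locus and 4 between loci. Within-locus pairs with miR-125b-5p, made at 2 loci, or with let-7a-5p, from 3 gene copies, are not specific to 1 locus. All 9 within-locus pairs had a positive r, from 0.0306 to 0.86 (median 0.57), and the 4 between loci had a median of 0.46. These medians changed with the libraries used. Without Control replicate 4 they were 0.39 within and 0.19 between loci, and in the CR samples alone 0.40 and 0.31. They were 0.16 and 0.24 without the 2 samples farthest from the median level of the first-named miRNA of each pair. In that setting 3 of the 9 within-locus pairs were below 0. The 2 samples differ between pairs, and a narrower range of levels can lower r by itself. With all 13 libraries, the median over all 34453 pairs of tested miRNAs was 0.0031. Of the 13 pairs, 10 lay above the 75th percentile of 0.30 and 2 above the 95th percentile of 0.64. After adjustment over the 13 pairs, 2 passed in a two-sided permutation test of 100000 resamples.

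The closest pair joined different loci. The levels of miR-125a-5p and miR-125b-5p correlated with a Pearson r of 0.98 (permutation p 1e-05, the smallest it can give; adjusted 0.00013) and a Spearman rho of 0.95 (p 2e-05, adjusted 0.00026). The r was 0.97 without the 2 samples farthest from the median and 0.98 in the CR samples alone (n = 8, exact permutation p 0.000397, adjusted 0.00516). Each was the other's most similar miRNA among the 262 others. The count ratio of miR-125a-5p to miR-125b-5p was 1.33, 1.49, 1.53, 1.37, 1.41, 1.24, 1.49 and 1.39 in CR replicates 1 to 8, and 1.47, 1.29, 1.49, 1.64 and 1.26 in Control replicates 1 to 5. The level of miR-125a-5p itself spanned 3.62-fold between libraries. The 2 mature forms are near-identical in sequence, and the labels do not say how reads that fit both were counted.

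The other pair that passed lies within the miR-99b locus. The levels of miR-99b-5p and miR-125a-5p correlated with an r of 0.86 (permutation p 0.00018, adjusted 0.00117) and a rho of 0.76 (p 0.00336, adjusted 0.0218). Without Control replicate 4 the r was 0.79 (adjusted permutation p 0.0161). Without the 2 samples farthest from the median of miR-99b-5p, Control replicates 4 and 5, it was 0.68 (adjusted permutation p 0.143). In the CR samples alone it was 0.70 (n = 8, exact permutation p 0.055, adjusted 0.357). Both settings have fewer samples and a narrower range of levels, so they cannot tell whether the call rests on those 2 libraries. For miR-99b-5p, miR-125a-5p was the most similar of the 262 other miRNAs. The third partner, let-7e-5p, had an r of 0.60 with miR-99b-5p and 0.58 with miR-125a-5p (adjusted permutation p 0.0866 for each; rho 0.42 and 0.31), and ranked at place 21 and 25 for them.

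At the other loci no pair passed. At the miR-99a locus miR-99a-5p had an r of 0.59 with miR-125b-5p (rho 0.68) and 0.37 with let-7c-5p (rho 0.33), and let-7c-5p had 0.56 with miR-125b-5p (rho 0.49), with adjusted permutation p of 0.0866, 0.277 and 0.0866 in turn. At the miR-100 locus miR-100-5p had an r of 0.57 with miR-125b-5p (rho 0.34) and 0.0306 with let-7a-5p (rho -0.00549), and let-7a-5p had 0.22 with miR-125b-5p (rho 0.11), with adjusted permutation p of 0.0866, 0.921 and 0.509. Without CR replicate 2 and Control replicate 4, its 2 samples farthest from the median, the r of miR-100-5p with miR-125b-5p was -0.0106. Within the miR-99/100 family, the r was 0.51 between miR-99a-5p and miR-99b-5p (rho 0.61), 0.42 between miR-99b-5p and miR-100-5p (rho 0.16) and 0.26 between miR-99a-5p and miR-100-5p (rho 0.0604), with adjusted permutation p of 0.124, 0.22 and 0.455. Without Control replicate 4 these were 0.27, 0.11 and -0.15, and that of miR-99a-5p with let-7c-5p was 0.16.

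The number of pairs past the threshold depended on the setting. With TMM computed without miR-486, 8 of the 13 pairs passed, and with library totals alone 13 of 13 passed, with r from 0.72 to 0.99. The pair miR-125a-5p with miR-125b-5p stood at 0.98 and 0.99 under these settings, and miR-99b-5p with miR-125a-5p at 0.89 and 0.94. With the copies of a mature miRNA summed 7 passed, and in the CR samples alone 1 did. Summing can count the same reads more than once, as copies were listed with nearly equal counts (123045 and 123029 in all for miR-125b-5p). Library totals alone also took 10 of 11 pairs with 3p arms, added after seeing the values, past the threshold. Among them was miR-125b-2-3p with miR-100-5p, from different loci, at an r of 0.90. The background over all pairs of miRNAs was computed under the main scaling only. Whether the counts under other scalings are particular to cluster partners therefore cannot be told.

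**Figure D4:**
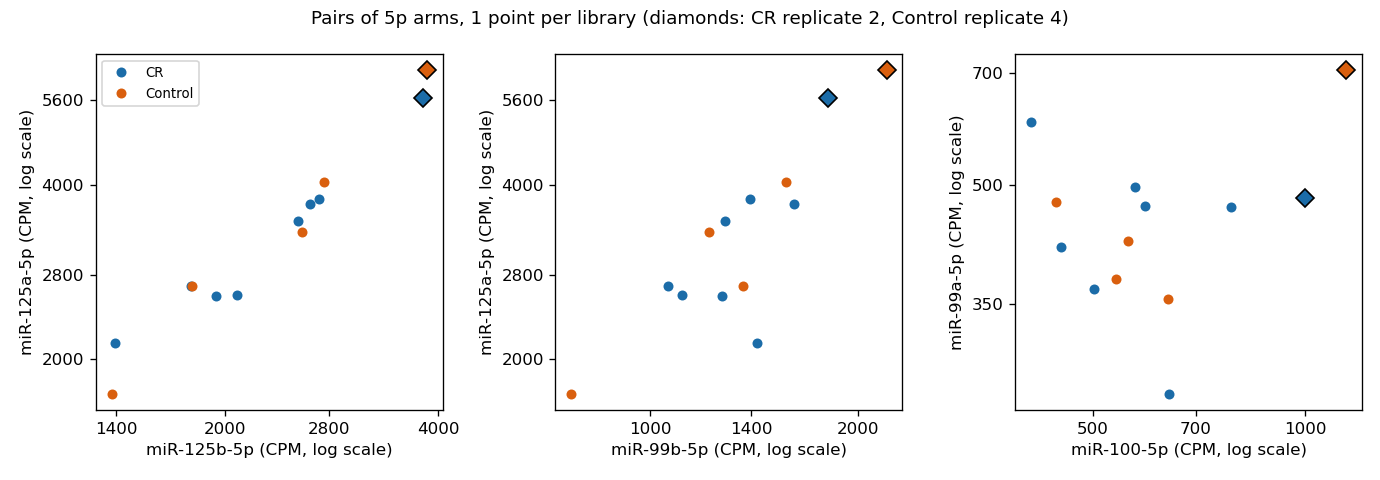
Levels in CPM of 3 pairs of 5p arms on log axes, 1 point per library (CR blue, Control orange, diamonds for CR replicate 2 and Control replicate 4). The points of miR-125a-5p and miR-125b-5p lie along a line (r 0.98), those of miR-125a-5p and miR-99b-5p scatter around one (r 0.86), and those of miR-99a-5p and miR-100-5p spread widely (r 0.26).

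**Figure D5:**
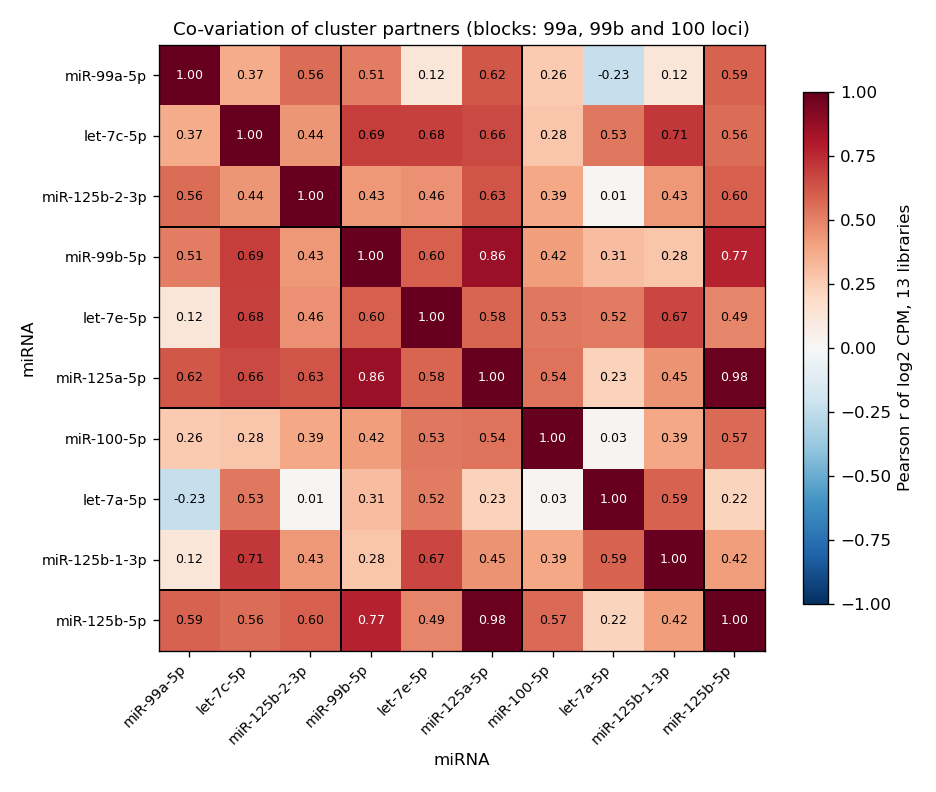
Pearson r of log2 CPM over 13 libraries among the 5p arms of the families, their let-7 partners and the 3p arms of miR-125b; black lines part the miR-99a, miR-99b and miR-100 loci, and miR-125b-5p, made at 2 of them, stands last. The strongest value is the 0.98 of miR-125a-5p with miR-125b-5p, and the r of let-7a-5p is -0.23 with miR-99a-5p and 0.0306 with miR-100-5p.

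Ratios between partners do not depend on scaling and were compared between diets by an exact permutation test (1287 permutations). Of 13 ratios, 0 passed after adjustment and 0 had an unadjusted p under 0.05 (two-sided exact permutation test, adjusted p 0.949 for each). The largest difference between partners was that of miR-100-5p to let-7a-5p, with a median ratio of 0.0487 in CR (0.0285 to 0.0866) and 0.0585 in Control (0.0477 to 0.112). On the log2 scale the mean was -4.33 ± 0.53 in the 8 CR samples and -3.95 ± 0.50 in the 5 Control samples (SD), a difference of -0.38 (exact permutation p 0.228), and -0.18 without Control replicate 4. For miR-99b-5p to miR-125a-5p the median ratio was 0.414 in CR and 0.389 in Control (log2 difference 0.0641, exact permutation p 0.723), and for miR-99b-5p to let-7e-5p 4.43 in CR and 4.13 in Control (-0.0136, exact permutation p 0.946). The ratio of miR-99a-5p to let-7c-5p had a median of 0.204 in CR and 0.229 in Control (-0.0339, exact permutation p 0.888), and that of miR-125a-5p to miR-125b-5p 1.4 in CR and 1.47 in Control (-0.0198, exact permutation p 0.783). Between arms, the largest difference was that of miR-99a-5p to miR-99a-3p, with a median of 40.5 in CR (25.7 to 57.3) and 25.5 in Control (14.1 to 69.5) and a log2 difference of 0.36 (exact permutation p 0.305), which became 0.10 when Control replicate 5 was left out and 0.67 without Control replicate 4 (exact permutation p 0.0283 unadjusted and 0.368 adjusted for the 0.67), the lowest and highest values with 1 library left out.

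The miRNAs most like each 5p arm over the 13 libraries were named by the 5 highest r of log2 CPM, as a description. For miR-125a-5p they were miR-125b-5p (0.98), miR-92b-3p (0.88), miR-99b-5p (0.86), the lymphocyte miRNA miR-150-5p (0.82) and miR-320a (0.80), and for miR-125b-5p miR-125a-5p, miR-92b-3p (0.92), miR-150-5p (0.79), miR-99b-5p (0.77) and miR-433-3p (0.77). For miR-99b-5p, miR-125a-5p was followed by miR-320a (0.82), the fibroblast marker miR-214-3p (0.80), miR-299-5p (0.78) and miR-320b (0.77). For miR-100-5p they were let-7e-3p (0.77), miR-224-5p (0.76), miR-377-5p (0.75), miR-452-5p (0.66) and miR-92b-3p (0.65). Without Control replicate 4, the lists kept 4 of 5 names for miR-125a-5p and miR-99b-5p, 3 for miR-125b-5p, 2 for miR-100-5p and 0 for miR-99a-5p. For miR-100-5p the values were then 0.56 for miR-377-5p, 0.46 for miR-452-5p and 0.54 for miR-92b-3p. For miR-99a-5p the list with all libraries was miR-204-5p (0.80), miR-127-3p (0.71), miR-381-3p (0.70), miR-485-5p (0.67) and miR-299-5p (0.66), and without Control replicate 4 it was miR-486-3p (0.86), miR-193b-5p (0.86), miR-486-5p (0.85), miR-196a-5p (0.83) and miR-505-3p (0.75).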

How the data were processed

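Small RNA of the 13 muscle samples was gel-isolated from Trizol RNA, made into TruSeq libraries and sequenced single-end, per the labels' protocols. The submitters' processing notes name the build Mmul_8.0.1; no source used here names an aligner or counter. The authors deposited raw counts per miRNA in 1 table (1703 rows), judged unnormalized from whole numbers with unequal totals. The 702 rows of predicted loci were left out. Each name kept its row with the highest total, and 3 names were merged with another within 1% of them (total of at least 20), which left 909 miRNAs.

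The main test was edgeR 4.0.16 (R 4.3.3; TMM, filterByExpr, robust quasi-likelihood) on 263 miRNAs, which hold at least 99.959% of the counts in any library, with Benjamini-Hochberg adjustment and a threshold of 0.05. Log2 CPM and log2 ratios used a prior count of 2. Correlations had permutation tests of 100000 resamples, exact ones within CR. Share intervals are exact binomial. Alternatives were DESeq2 1.42.0, limma-voom (limma 3.58.1), other scalings, filters and copies, a replicate block, and libraries left out. Scripts were tested on simulated data.

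Members, lists, pairs and ratios were chosen with earlier results of these data known. The text names all members, the let-7 partners and, for each 5p arm, the 5 most similar miRNAs, and gives marker lists of muscle fibres and other cell types. It is not stated that every sample is from its own animal, so p-values measure the spread between samples, which may be technical. Libraries of a group differed far beyond counting noise (chi-square per degree of freedom at least 174), and each counts as 1 sample.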

Additional observations from a re-analysis of the deposited data

Results flagged for a closer look

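In 58 tests of a group for 1 sample far from the others (Dixon's criterion on levels, ratios and family shares), 6 samples stood out; chance marks about 1 in 20 groups, and the measures share libraries. Control replicate 4 stood apart as the highest Control sample for miR-100-5p at 1142 CPM, for let-7e-5p at 536 CPM, and for the share of the miR-99/100 family at 0.716% of named miRNA counts. CR replicate 2 was the highest CR sample for miR-125a-5p at 5659 CPM and for miR-125b-2-3p at 468 CPM. Control replicate 5 had the highest log2 ratio of miR-99a-5p to miR-99b-5p in its group, at -0.86. Marker sums of these libraries are given with the levels above, and their part was not tested.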

How the results depend on the processing

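In every setting tried 0 members and 0 of all tested miRNAs passed in the comparison of CR with Control. DESeq2 and limma-voom gave 7 miRNAs each at an unadjusted p under 0.05. Without CR replicate 2, 1 of 9 tested members had such a p in edgeR, beside 11 of 259 tested miRNAs. This was miR-99a-3p, with a log2 fold change of -0.68 and an edgeR adjusted p of 0.875. Ratios past the threshold stayed at 0. The replicate numbers of the titles did not pair the samples (correlations of same-numbered deviations -0.239 to -0.0474), and the replicate block on them called 0 of 250 miRNAs, with 0.046 for miR-99b-5p and a members' median of -0.0811. Small log2 fold changes turned sign; the cause was not tested. For miR-99b-5p limma-voom gave 0.00047. With the sample number, which differs for every sample, as covariate the values were 0.17 for miR-99b-5p, 0.16 for miR-99b-3p, 0.0742 for miR-125a-5p, 0.11 for miR-125b-5p, 0.0465 for miR-125b-1-3p and 0.0844 for let-7c-5p. For miR-125a-3p library totals alone gave -0.18, TMM without miR-486 -0.00271 and predicted loci kept -0.022. For let-7e-5p DESeq2's size factors gave -0.0446, library totals alone -0.32, TMM without miR-486 -0.11, no filter -0.11, a mean CPM of at least 10 -0.0562, DESeq2 -0.045, summed copies -0.0326 and predicted loci kept -0.11. Leaving out 1 library at a time gave log2 fold changes of -0.23 to 0.13 for miR-99a-5p, -0.29 to 0.16 for miR-99b-5p, -0.68 to -0.25 for miR-99a-3p, -0.20 to 0.00231 for miR-99b-3p, -0.32 to 0.18 for miR-100-5p, -0.39 to 0.17 for miR-125a-5p, -0.0663 to 0.22 for miR-125a-3p, -0.31 to 0.15 for miR-125b-5p, -0.21 to 0.041 for miR-125b-1-3p, -0.23 to 0.12 for let-7c-5p, 0.19 to 0.37 for let-7a-5p and -0.18 to 0.26 for let-7e-5p. Pairs past the threshold numbered 1 in CR samples alone, 13 with library totals alone and 8 with TMM without miR-486. They numbered 1 without the 2 samples farthest from the median, 7 with summed copies, and 2 to 3 with 1 library left out. The 3 came without CR replicate 3, where let-7c-5p with miR-125b-5p had an r of 0.76 (adjusted permutation p 0.0192). Over all single libraries left out, the r of this pair ran from 0.45 to 0.76. Without the 2 farthest samples r was -0.0115 for let-7e-5p with miR-125a-5p, -0.21 for miR-100-5p with let-7a-5p, -0.0106 for miR-100-5p with miR-125b-5p, -0.0743 for miR-99a-5p with miR-100-5p, -0.0453 for miR-125b-2-3p with let-7c-5p and -0.51 for miR-125b-2-3p with miR-100-5p; in CR samples alone miR-99a-5p with miR-100-5p gave -0.10. With 1 library left out r ran from -0.21 to 0.20 for miR-100-5p with let-7a-5p, -0.000541 to 0.37 for let-7a-5p with miR-125b-5p, -0.15 to 0.49 for miR-99a-5p with miR-100-5p, -0.0661 to 0.24 for miR-125b-1-3p with miR-99a-5p and -0.0555 to 0.28 for the arms of miR-99a. The added pairs past the threshold numbered 0 to 1 (1 without Control replicate 5), 10 with library totals alone and 2 with TMM without miR-486. No background over all pairs was computed under these 2 scalings. Log2 ratio differences with 1 library left out ran from -0.19 to 0.0819 for miR-99a-5p to let-7c-5p, -0.16 to 0.0849 for miR-99b-5p to let-7e-5p, -0.0294 to 0.15 for miR-99b-5p to miR-125a-5p, -0.23 to 0.11 for miR-100-5p to miR-125b-5p, -0.12 to 0.16 for miR-99a-5p to miR-100-5p, -0.13 to 0.11 for miR-99a-5p to miR-99b-5p, -0.0626 to 0.0306 for miR-125a-5p to miR-125b-5p, 0.10 to 0.67 for the arms of miR-99a, -0.00887 to 0.32 for those of miR-99b, -0.28 to 0.16 for those of miR-125a, -0.15 to 0.17 for miR-125b-5p to miR-125b-1-3p, -0.13 to 0.22 for miR-125b-5p to miR-125b-2-3p and -0.14 to 0.0419 for miR-125b-2-3p to miR-125b-1-3p, the last chosen after seeing the data. Out of counts without miR-486 the family shares were 0.577% in CR and 0.68% in Control for miR-99/100, and 1.42% in CR and 1.72% in Control for miR-125.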

Other observations

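Pairs with the 3p arms were added after seeing the values and give a further view of the loci. The locus-specific miR-125b-2-3p had an r of 0.56 with miR-99a-5p (rho 0.61), its neighbour, 0.44 with let-7c-5p (rho 0.42) and 0.39 with miR-100-5p (rho 0.10). For miR-125b-1-3p the r was 0.39 with its neighbour miR-100-5p (rho 0.38) and 0.12 with miR-99a-5p (rho 0.30), and between both 3p arms it was 0.43 (rho 0.37). With miR-125b-5p, the joint product of both miR-125b hairpins, the r was 0.60 for miR-125b-2-3p (rho 0.57) and 0.42 for miR-125b-1-3p (rho 0.40). Arms of 1 hairpin had an r of 0.41 for miR-125a (rho 0.49), 0.29 for miR-99b (rho 0.30) and 0.13 for miR-99a (rho 0.20). Without the 2 samples farthest from the median, miR-125b-1-3p had an r of 0.75 with miR-100-5p (adjusted permutation p 0.0766) and 0.65 with miR-125b-5p, and miR-125b-2-3p had 0.52 with miR-99a-5p and 0.22 with miR-125b-5p. Of these 11 pairs, 0 passed after adjustment (permutation test, lowest adjusted p 0.26 for r and 0.257 for rho).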
